A study of Oryza sativa with 8 samples.

Results

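Shoots of mhz7 rice seedlings in ethylene were compared with mhz7 shoots in air, 1 Affymetrix rice array each, to describe what response to the gas was left in the mutant. These are 2 of 8 arrays, which hold 1 sample for each combination of genotype, organ and gas. The groups were mhz7 shoot in ethylene, mhz7 shoot in air, wild-type (WT) shoot in ethylene, WT shoot in air, and the matching 4 root samples. Seeds germinated in darkness at 37 °C, and seedlings aged 3 days were given 10 ppm ethylene at 28 °C for 8 h, still in darkness, or stayed in air. The gene table lists MHZ7 as a synonym of EIN2, and what the mutation changes in that gene is not given in the sources used. The cultivar, the number of seedlings behind a sample and any pooling are not given there either.

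Ethylene is a gaseous plant hormone perceived by membrane receptors that repress signalling until they bind it. EIN2 carries the signal from the receptors to the transcription factors of the EIN3/EIL1 family, and in rice a loss of EIN2 makes seedlings insensitive to the gas. In dark-grown rice seedlings ethylene is known to shorten roots and to lengthen the coleoptile, which is part of the shoot.

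After scaling, all arrays have the same trimmed mean signal, 500, over 57258 probe sets. Signals under 100 were set to 100 before a fold or a log2 change was taken. A probe set is said to have risen or fallen where ethylene and air differed by at least 2-fold and the brighter signal was at least 200. With 1 array per condition such a call has no replicate behind it, and precision is limited by how few arrays there are. The organ label was borne out on the mhz7 arrays. Probe sets at least 10-fold brighter in WT shoot than in WT root had a median signal of 3450 in mhz7 shoots in ethylene and 3630 in air, and those at least 10-fold brighter in WT root had medians of 93.8 and 157. Named markers gave the same order: 6 shoot genes, among them CAB2R and PORA, summed to 66923 in mhz7 shoots in ethylene and 81164 in air, against 464 and 713 in mhz7 roots. Of 9 root genes, among them TIP2-1, NAS1 and PIP2-4, 6 were above the floor in mhz7 shoots in each gas. TIP2-1 was under it in ethylene only and NRT2.2 in air only. The 9 genes summed to 1391 in mhz7 shoots in ethylene and 3807 in air, against 82803 and 100697 in mhz7 roots. Of 7 seed and aleurone genes 2 were above the floor in each mhz7 shoot sample, and the 7 summed to 1188 in ethylene and 1372 in air.

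RNA quality measures differed between the arrays compared. Where RNA is more degraded, the 3′ probe set of a control gene reads higher relative to its 5′ probe set. This ratio was 13.5 in mhz7 shoots in ethylene and 9.55 in air for actin. It was 9.08 and 5.92 for GAPDH, 1.73 and 1.52 for ubiquitin, and 2.2 and 2.1 for cyclophilin. In WT shoots the actin ratio was 8.26 in ethylene and 6.34 in air. For each of these control genes the mhz7 shoot in ethylene had the highest ratio of the 8 arrays. The mhz7 root in ethylene came close to it for GAPDH (8.7) and cyclophilin (2.17). The part of these differences in the results below was not tested.

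EIN2 had a signal of 1574 in mhz7 shoots in ethylene and 1532 in air, against 747.4 in WT shoots in ethylene and 859.2 in air. In roots it had 2462 in mhz7 in ethylene and 2792 in mhz7 in air, against 1064 in WT in ethylene and 1649 in WT in air. The 4 mhz7 samples of EIN2 were each brighter than the WT sample of the same organ and gas, and gas moved it little in shoots of either genotype. Since the mutation is not described, this level is no check of the genotype label.

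The response of mhz7 shoots to ethylene was small and mostly downward. Of 57258 probe sets, 16 rose (0.0279%) and 114 fell (0.199%), and these covered 14 and 73 genes, counting probe sets with a single listed gene. In WT shoots 117 rose (0.204%) and 301 fell (0.526%), in mhz7 roots 71 rose (0.124%) and 194 fell (0.339%), and in WT roots 234 rose (0.409%) and 225 fell (0.393%). Over the 21444 probe sets whose signal averaged 200 or more, log2 changes in mhz7 shoots had a standard deviation across probe sets of 0.21, against 0.30 in WT shoots. They lay within 0.25 of 0 for 86.5% of probe sets in mhz7 shoots and for 79.2% in WT shoots. Whether the genotypes differ in these spreads cannot be tested with 1 array per condition.

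Falls outnumbered rises at a lower fold as well. At 1.5-fold, over the same 21444 probe sets, 67 were higher and 342 lower in mhz7 shoots in ethylene, which is 1.91%, against 333 and 751, or 5.06%, in WT shoots. Many falls lay close to the threshold: 37 of the 114 were within 0.1 of a log2 change of -1, and another 25 probe sets lay within 0.1 outside it. Of the 16 rises, 4 lay that close inside and 3 probe sets that close outside. The smallest rise inside the threshold was 1.01 and the largest change outside it 0.99, and for falls these were -1.003 and -0.997.

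**Figure D1:**
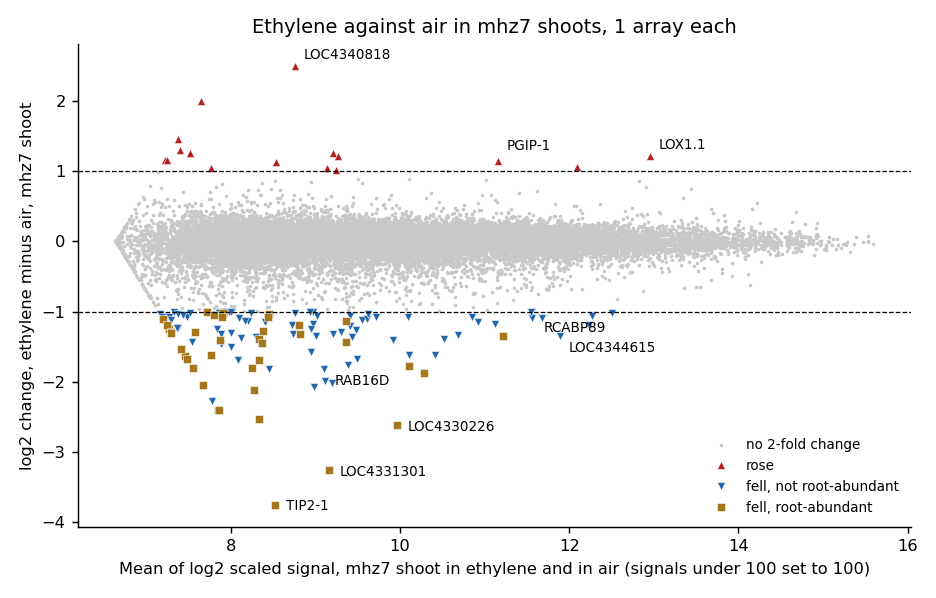
Log2 change in mhz7 shoots, ethylene minus air, against the mean log2 scaled signal of the 2 arrays. Each point is a probe set whose signal averaged 200 or more on the 8 arrays, or one with a 2-fold call in the shoots of either genotype. Dashed lines mark 2-fold. The 16 rises are red triangles, falls are blue triangles, or brown squares where the transcript is at least 10-fold brighter in WT root. TIP2-1 is the lowest point, at -3.75, and LOC4340818 the highest, at 2.50.

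Among the rises with a symbol, LOX1.1 and PGIP-1 had the strongest signals. LOX1.1, which encodes a lipoxygenase that oxygenates polyunsaturated fatty acids, had 12050 in mhz7 shoots in ethylene and 5205 in air, a log2 change of 1.21. In WT shoots LOX1.1 had 2476 in ethylene and 4054 in air, so its WT difference ran the other way and stayed within 2-fold (-0.71). PGIP-1, which encodes a polygalacturonase-inhibiting protein that blocks pectin-degrading enzymes of pathogens, had 3398 in mhz7 shoots in ethylene and 1537 in air. That is a log2 change of 1.15 in mhz7, beside 0.82 in WT shoots, where its signals were higher, at 10370 in ethylene and 5870 in air.

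JAZ13, a member of the JAZ family of jasmonate signalling repressors, had 858.9 in mhz7 shoots in ethylene and 426.7 in air, a change of 1.01 that sits at the threshold. Its WT shoot signals were 140.9 in ethylene and 88.9 in air, lower than either mhz7 value. GRXC10, a glutaredoxin gene, had 226.2 in mhz7 shoots in ethylene and 101.7 in air, against 274.4 in WT shoots in ethylene and 88.8 in air. It is the one rise of mhz7 shoots that was also a rise in WT shoots, at 1.15 in mhz7 and 1.46 in WT.

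The other 10 rises with a listed gene carry only locus numbers. LOC4340818 rose most, with 1028 in mhz7 shoots in ethylene and 182.2 in air (2.50), whereas WT shoots had 445.9 in ethylene and 878.9 in air. LOC4331849 had 914.9 in mhz7 shoots in ethylene and 382 in air, and 173.6 and 135.4 in WT shoots. LOC4349324 was the brightest of this group, with 6300 in mhz7 shoots in ethylene and 3021 in air, below 22358 in WT shoots in ethylene and 13520 in WT shoots in air. LOC4349616 (1.04), LOC4324822 (1.29), LOC4349441 (1.13) and LOC4326757 (1.25) also rose. LOC4331947 was at least 3.98-fold higher, LOC4342551 at least 2.74-fold and LOC4332760 at least 2.23-fold, since their mhz7 air signals lay under the floor. The remaining 2 rises were probe sets with no listed gene.

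Most genes of the jasmonate list, which takes in lipoxygenase genes by symbol, did not reach 2-fold in mhz7 shoots. Of its 29 measured genes, LOX1.1 and JAZ13 were the 2 that rose, none fell, and the median change was 0.00. Membership by symbol does not show that LOX1.1 acts in jasmonate synthesis, and this was not tested. CM-LOX2, a lipoxygenase gene on the same list but too dim to count as measured, fell (-1.38). The median over all 13839 measured genes was 0.02, with 9 rises (0.065%) and 54 falls (0.39%), counting the brightest probe set of each gene. WT shoots had 68 rises (0.491%) and 174 falls (1.26%) on that count. JAZ8 had 3290 in mhz7 shoots in ethylene and 3825 in air, a change of -0.22, where WT shoots fell to 378.2 in ethylene, against 1062 in air (-1.49). The allene oxide cyclase gene aoc stood at 11164 and 9482 in mhz7 shoots, a change of 0.24, and at 7335 and 8413 in WT shoots.

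Of the 114 falls, 39 (34.2%) belonged to transcripts at least 10-fold brighter in WT root than in WT shoot. That set holds 260 probe sets, of which 15% fell in mhz7 shoots. The number that fell in WT shoots was also 39, and 23 fell in both. The set was chosen on the WT arrays of both gases, and a low signal in WT shoots in ethylene helps a probe set into it. The WT count, the shared count and the WT shoot levels below were therefore partly built in. All 260 average a signal of 200 or more, and among probe sets of that brightness that are in neither organ-abundant set, 48 of 20564 fell in mhz7 shoots (0.233%). In a whole organ, fewer cells of a type and less RNA per cell cannot be told apart. The 170 root-abundant probe sets with a WT root signal of at least 2000 stood at a median of 2.82% of their WT root level in mhz7 shoots in ethylene and 4.89% in air. The same set stood at 3.07% in WT shoots in ethylene and 4.94% in WT shoots in air. The part of root tissue among the shoot samples in the 39 falls was not tested.

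Root-abundant falls with a symbol were 2 aquaporins, a metallothionein, a phosphate transporter and 2 nicotianamine synthases. TIP2-1, an aquaporin of the vacuolar membrane, was under the floor at 90.9 in mhz7 shoots in ethylene, against 1347 in air, so it was at least 13.5-fold lower. WT shoots had 612.1 in ethylene and 1717 in air, while all 4 root signals lay between 30712 and 33640. A second, dimmer TIP2-1 probe set had 46.1 in mhz7 shoots in ethylene and 155 in air, too dim to be called. PIP2-4, a plasma membrane aquaporin, had 199.5 in mhz7 shoots in ethylene and 524.6 in air (-1.39), with little difference in WT shoots, at 1385 and 1348.

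LOC4331301 had 184.7 in mhz7 shoots in ethylene and 1773 in air (-3.26), and LOC4349200 had 651 and 2399 (-1.88). LOC4330226 had 403.3 in mhz7 shoots in ethylene and 2474 in air (-2.62). Its second probe set was under the floor on both of these arrays. MT4A, a metallothionein gene whose product binds metal ions, had 399.6 and 1085 in mhz7 shoots (-1.44) and 464.2 and 1160 in WT shoots (-1.32). PHT1-2, a phosphate transporter gene, had 148.5 and 299.3 in mhz7 shoots, a change of -1.01 beside -0.96 in WT shoots. Among these genes PIP2-4 is the one whose ethylene and air values were close together in WT shoots.

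Nicotianamine synthases make the metal chelator from which grasses build the mugineic acids used to take up iron. NAS2 had 296.9 in mhz7 shoots in ethylene and 677.3 in air (-1.19), and NAS1, its direct neighbour on chromosome 3, had 241.9 and 499.6 (-1.05). Both are root-abundant, and their changes in WT shoots were -0.98 and -0.45. NAAT1, whose product acts on nicotianamine in the next step, had 487.7 in mhz7 shoots in ethylene and 935.3 in air, a change of -0.94 that did not reach 2-fold. Over the 24 measured iron acquisition genes 2 fell, 15 were lower, and the median was -0.03. Of all 13839 measured genes, 54 fell (0.39%) and 6028 were lower.

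Most members of the transport lists stayed within 2-fold. For comparison, 0.39% of all 13839 measured genes fell in mhz7 shoots and 6028 were lower in ethylene. Of 20 measured aquaporin genes 2 fell, TIP2-1 and PIP2-4, and the median was -0.03. The bright shoot aquaporin PIP2-6 had 19283 in mhz7 shoots in ethylene and 18048 in air. Of 12 measured nitrate, ammonium and phosphate transport genes, PHT1-2 fell and the median was -0.15. All 7 metallothionein genes were lower in ethylene, but MT4A alone fell, and the median was -0.22. MT2C, the brightest, had 36569 in mhz7 shoots in ethylene and 39243 in air.

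Chlorophyll-binding protein genes were among the few falls of transcripts at least 10-fold brighter in WT shoot than in WT root. Of 620 such probe sets, 5 fell in mhz7 shoots (0.806%) and 14 in WT shoots (2.26%). The WT arrays of both gases chose this set too, so its WT count is not independent of that choice. Of the 20564 probe sets of mean signal 200 or more in neither organ-abundant set, 0.233% fell in mhz7 shoots and 0.997% in WT shoots. RCABP89, whose product binds chlorophyll in the light-harvesting antenna, had 2075 in mhz7 shoots in ethylene and 4416 in air (-1.09), against 8147 in WT shoots in ethylene and 9362 in WT shoots in air. A second such gene, CAB2R, fell by 1 probe set, with 3419 and 7157 (-1.07), while its brighter probe set had 15110 and 20907 (-0.47). LOC4335799 had 3189 in mhz7 shoots in ethylene and 7256 in air (-1.19), and LOC4343604 had 2121 and 4250 (-1.0). LOC4342395 had the largest change of the 5, with 276.7 in mhz7 shoots in ethylene and 1102 in air (-1.99), where WT shoots were far brighter, at 6883 in ethylene and 4135 in air.

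Over the 22 measured photosynthesis and chlorophyll genes, 18 were lower in mhz7 shoots in ethylene and 1, RCABP89, fell. The list median was -0.19 in mhz7 shoots and -0.21 in WT shoots, where none fell. PORA, the protochlorophyllide reductase that waits in dark-grown plastids for light, had 4724 in mhz7 shoots in ethylene and 6320 in air, and 7630 and 10310 in WT shoots. Its change was -0.42 in mhz7 and -0.43 in WT. Over all 13839 measured genes, 6028 were lower in mhz7 shoots in ethylene.

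Among falls outside the organ-abundant sets, RAB16D had the largest change of the genes with a symbol. RAB16D, a dehydrin of the kind induced by abscisic acid and drying, had 292.8 in mhz7 shoots in ethylene and 1032 in air (-1.82), whereas WT shoots had 224.4 in ethylene and 172.5 in air. The other 5 measured dehydrin and LEA genes stayed within 0.46 of 0 in log2 change, and RAB21, the brightest of them, had 4825 and 4601 in mhz7 shoots. Of 27 measured genes of abscisic acid synthesis and response, RAB16D and PM1 (-1.0) fell, against 0.39% of all measured genes, and the median was 0.02. A probe set of the type 2C phosphatase gene OsPP2C45 fell, with 362.6 in mhz7 shoots in ethylene and 1225 in air (-1.76), but a brighter one of the same gene had 3325 and 3154 (0.08). The probe sets of OsPP2C45 disagree, and none of the 48 measured type 2C phosphatase genes fell by its brightest probe set (median 0.05).

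Laccases oxidise the monolignols that form lignin, and cinnamoyl-CoA reductase makes their precursors. LAC24 had 113.7 in mhz7 shoots in ethylene and 305.9 in air (-1.43), LAC19 had 195.6 and 504.9 (-1.37), and LAC15 was at least 2.11-fold lower. CCR1 had 149.7 and 372.5 (-1.31). These 4 genes were dim and lay under the mean signal of 200 over the 8 arrays, so they are not among the 6 measured laccases or the 23 measured phenylpropanoid genes. None of those 29 fell, with medians of 0.11 for laccases and -0.04 for phenylpropanoid genes. The lipoxygenase gene CM-LOX2, also under that mean, had 172.4 in mhz7 shoots in ethylene and 448 in air (-1.38), opposite in direction to LOX1.1.

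**Figure D2:**
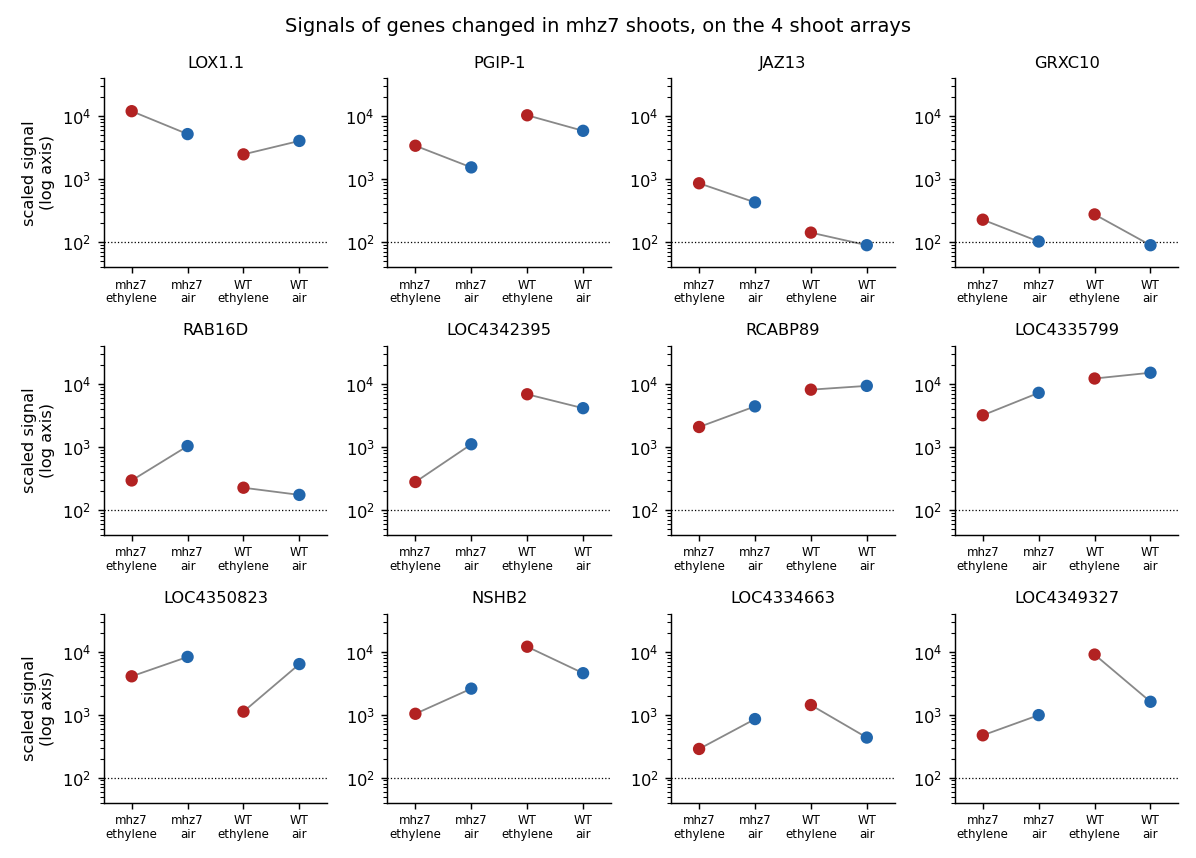
Scaled signal, on a log axis, of 12 genes that rose or fell in mhz7 shoots. Each panel gives the mhz7 shoot in ethylene and in air, then the WT shoot in ethylene and in air, 1 array per point (red ethylene, blue air), and the dotted line is the floor of 100. The top row holds rises of mhz7. NSHB2, LOC4334663 and LOC4349327 in the bottom row were lower in ethylene in mhz7 and higher in ethylene in WT.

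A block of 4 genes next to each other on chromosome 8 fell. LOC4344615 had 2379 in mhz7 shoots in ethylene and 6048 in air (-1.35). LOC4344616 had 346.1 and 696.2 (-1.01), LOC4344618 had 779 and 2389 (-1.62), and LOC4344619 had 374.3 and 929.8 (-1.31). The genes on either side with a signal above the floor stayed well within 2-fold. LOC4344612 had a change of -0.24, and fie and ARP4 had 0.14 and 0.11. In WT shoots this block was dim, with LOC4344615 at 179.7 in ethylene and 503.3 in air and LOC4344619 under the floor in both. LOC4344615 also fell in WT shoots (-1.49) and in mhz7 roots (-1.78, with its ethylene signal under the floor). The rest of the block was called in neither. Of the 87 genes that changed in mhz7 shoots, these 4 and the pair of NAS genes are the 6 that had a changed gene as a direct neighbour.

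**Figure D3:**
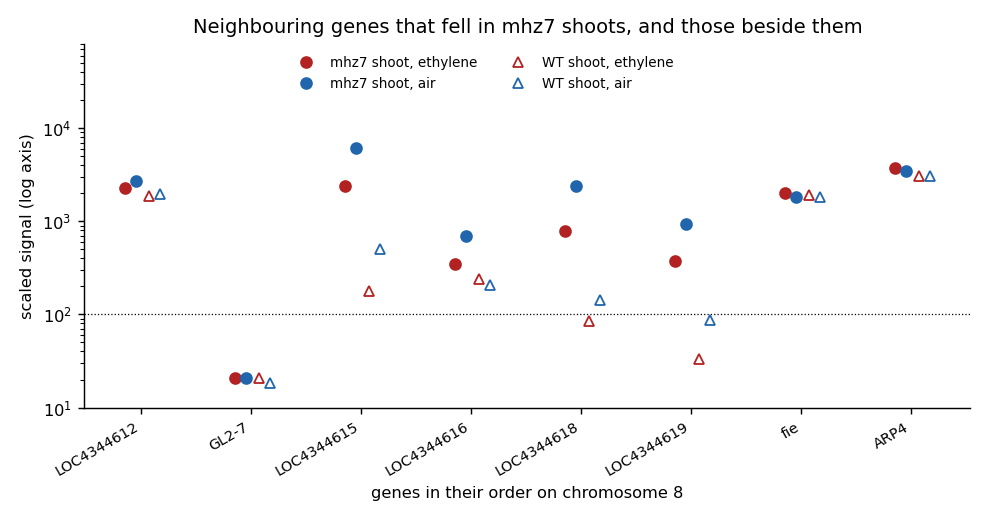
Scaled signal, on a log axis, of 8 consecutive genes of chromosome 8 in gene table order. Filled circles are mhz7 shoots and open triangles WT shoots, red in ethylene and blue in air, and the dotted line is the floor of 100. The 4 middle genes were lower in ethylene than in air in mhz7 shoots, with changes between -1.62 and -1.01.

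The mhz7 shoot changes overlapped in part with those of WT shoots, which share no array with them. Of the 130 probe sets changed in mhz7 shoots, 40 changed the same way in WT shoots, which is 30.8% of the mhz7 changes and 9.57% of the 418 WT changes. The shared ones comprised 39 falls and the rise of GRXC10. Without root-abundant probe sets, the shared changes numbered 17, or 18.7% of 91 in mhz7 and 4.52% of 376 in WT. Another 7 probe sets fell in mhz7 shoots and rose in WT shoots, and the rest passed the rule in mhz7 alone of the shoot pairs.

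Falls shared by both genotypes outside the root-abundant set covered 16 probe sets and 8 genes. LOC4350823 was the brightest, with 4086 in mhz7 shoots in ethylene and 8316 in air (-1.03), against 1120 in WT shoots in ethylene and 6392 in WT shoots in air (-2.51). LOC4337246 had 590.9 and 1572 in mhz7 shoots (-1.41) and 206 and 920.6 in WT shoots (-2.16). LOC4327653 had 402.7 and 983.1 in mhz7 shoots (-1.29) and 95.9 and 413 in WT shoots. All 3 also fell in mhz7 roots, with changes of -1.09, -1.77 and -1.25, and 7 of the 16 probe sets did so.

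The mhz7 shoot pair and the mhz7 root pair share no array either. Of the 130 changed probe sets, 14 changed the same way in mhz7 roots, which is 10.8% of the shoot changes and 5.28% of the 265 root changes, and all 14 were falls. Without root-abundant probe sets, 12 were shared, or 13.2% of 91 in shoots and 5.13% of 234 in roots. Whether the overlap differs from that with WT shoots was not tested. The shared falls included NSHB2 (-1.33 in shoots and -1.67 in roots), PHT1-2 (-1.01 and -1.10) and LOC4346052, which had 2245 in mhz7 shoots in ethylene and 4791 in air (-1.09) and a change of -1.58 in mhz7 roots. LOC4344046 and 2 probe sets with no listed gene fell in shoots and rose in roots of mhz7.

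**Figure D4:**
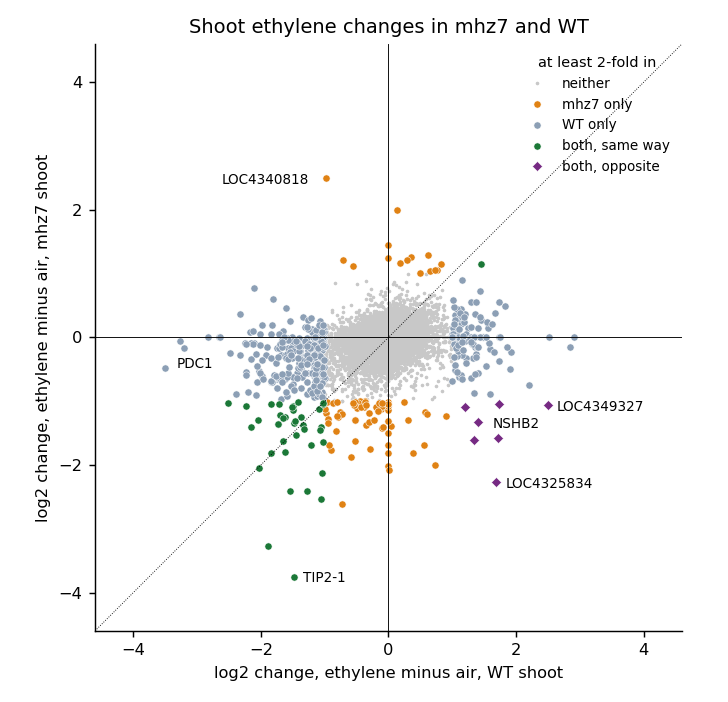
Log2 change in mhz7 shoots (vertical axis) against WT shoots (horizontal axis), ethylene minus air, 1 point per probe set. Colours mark a 2-fold call in mhz7 only, in WT only, in both the same way (40) and in both in opposite directions (7), and the dotted line marks equal change. Of the 418 WT changes, 371 were not called in mhz7, among them PDC1 at -0.17 in mhz7, and the median mhz7 change was 0.0 over the WT rises and -0.38 over the WT falls.

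The 7 opposite probe sets were led by LOC4325834, which was under the floor at 82.7 in mhz7 shoots in ethylene, against 482.9 in air, and had 963.6 in WT shoots in ethylene and 298.1 in WT shoots in air. NSHB2, a non-symbiotic haemoglobin whose product binds oxygen tightly and scavenges nitric oxide, had 1035 in mhz7 shoots in ethylene and 2601 in air, against 12078 in WT shoots in ethylene and 4579 in WT shoots in air. Its changes were -1.33 in mhz7 and 1.40 in WT. The related NSHB1 has 3 probe sets that fell in mhz7 shoots, with changes of -1.61, -1.15 and -1.08. In WT shoots the first rose by 1.34, whereas the other two stood at -0.17 and -0.08, so the WT rise of NSHB1 is given as uncertain: its probe sets disagree, and related genes can share one.

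LOC4334663 had 285.4 in mhz7 shoots in ethylene and 852.8 in air, against 1426 in WT shoots in ethylene and 433.1 in WT shoots in air. LOC4349327 had 470.5 and 985.9 in mhz7 shoots and 9061 and 1607 in WT shoots. LOC4350725 (-1.04 in mhz7, 1.74 in WT) and the root-abundant LOC4343992 (-1.08 and 1.21) complete the set. In each of the 7, the WT ethylene value was the highest of the 4 shoot signals and the mhz7 ethylene value the lowest. The order of ethylene and air within each genotype was fixed by how the 7 were picked.

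Of the 16 genes with a symbol that changed most in WT shoots, GRXC10, NSHB1 and NSHB2 were called in mhz7 shoots and the other 13 were not. Among those 13, PRX112 is a bound, at least 1.74-fold lower in mhz7 shoots in ethylene, and AMY1.1 was under the floor in mhz7 shoots in both gases. ARGOS, a growth regulator of organ size, had 235.8 in mhz7 shoots in ethylene and 251.7 in air (-0.09), against 2829 in WT shoots in ethylene and 947.1 in WT shoots in air (1.58). BU1, a brassinosteroid-related growth gene, had 492.4 and 296.9 in mhz7 shoots, a change of 0.73 that stayed under 2-fold, beside 1.43 in WT shoots. The arginine decarboxylase gene ADC2 changed by -0.44 in mhz7 and -2.06 in WT. PDC1, the pyruvate decarboxylase gene of ethanol fermentation, had 4936 in mhz7 shoots in ethylene and 5543 in air, against 130.2 in WT shoots in ethylene and 1206 in WT shoots in air.

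Ethylene perception and signalling genes differed little between gases in mhz7 shoots. All 7 measured genes were a little higher in ethylene, none reached 2-fold, and the median was 0.13. The receptor gene ETR2 had 777.5 in mhz7 shoots in ethylene and 739.9 in air (0.07), against 2566 in WT shoots in ethylene and 1418 in WT shoots in air (0.86). ERS1, ERS2 and ETR3, which encode other receptors, changed by 0.21, 0.22 and 0.24. The transcription factor gene EIL1A changed by 0.13, and EIL1B had 1498 and 1437 in mhz7 shoots (0.06), where WT shoots fell to 152.5 in ethylene, against 616.6 in air (-2.02). Of 5 measured ethylene biosynthesis genes none was called (median 0.08), and the ACC oxidase gene ACO1 had 11802 in mhz7 shoots in ethylene and 9940 in air.

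Diterpenoid phytoalexin genes were lower in ethylene in the shoots of both genotypes. Rice makes momilactones and phytocassanes as antimicrobial diterpenoids, and CPS4, KSL4, CYP99A2, CYP99A3 and OsMAS act in momilactone synthesis. All 9 measured genes were lower in mhz7 shoots in ethylene, none by 2-fold, with a median of -0.63. Of all 13839 measured genes, 6028 were lower there. In WT shoots 7 of the 9 fell, against 1.26% of all measured genes, and the median was -1.36. The list was lower in mhz7 roots too, where 6 of the 9 fell and the median was -1.15. In WT roots 1 fell and 2 rose, with a median of -0.28. Of all 13839 measured genes, 102 fell in mhz7 roots, while 123 fell and 120 rose in WT roots. CPS4 had 609.6 in mhz7 shoots in ethylene and 1039 in air (-0.77), against 218.9 in WT shoots in ethylene and 480.7 in WT shoots in air (-1.14). CYP99A3 had 1792 and 2848 in mhz7 shoots (-0.67) and 429.3 and 1386 in WT shoots (-1.69). Whether the genotypes differ for this list was not tested, since each value rests on 1 array per condition.

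Defence protein genes had a similar median in both genotypes, -0.49 in mhz7 shoots and -0.50 in WT shoots. Of 12 measured genes, 10 were lower in mhz7 shoots in ethylene and none was called, while 4 fell and 1 rose in WT shoots. Of all 13839 measured genes, 6028 were lower in mhz7 shoots, and in WT shoots 1.26% fell and 0.491% rose. PBZ1, a pathogenesis-related protein gene, had 14449 in mhz7 shoots in ethylene and 22343 in air (-0.63), against 3854 in WT shoots in ethylene and 12818 in WT shoots in air (-1.73). The chitinase gene Cht11 had 329.1 and 513.2 in mhz7 shoots (-0.64) and 602.6 and 329.7 in WT shoots (0.87). Without Chib3H-h, the 1 root-abundant gene of this list, the mhz7 median was -0.38.

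Genes of fermentation and low oxygen had a median of -0.14 over 11 measured genes, and the 2 that fell were the haemoglobin genes NSHB1 and NSHB2. The share that fell among all measured genes was 0.39%. The alcohol dehydrogenase gene Adh2 had 735.7 in mhz7 shoots in ethylene and 1324 in air (-0.85), against 2189 in WT shoots in ethylene and 1219 in WT shoots in air (0.84). Sucrose synthase genes stayed within 0.25 of 0, with SUS1 at 21652 in mhz7 shoots in ethylene and 20883 in air.

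The remaining lists gave no call in mhz7 shoots. Median changes were 0.10 for 50 auxin genes, 0.06 for 24 cytokinin genes, 0.02 for 13 gibberellin genes, 0.03 for 33 expansin and wall enzyme genes, -0.11 for 9 germin-like genes, 0.15 for 3 ERF and DREB factors, -0.03 for 17 heat shock genes and 0.04 for 8 starch and amylase genes. The auxin-conjugating gene GH3.2 had 930.9 in mhz7 shoots in ethylene and 1545 in air (-0.73), close to its WT change of -0.88. Of 55 cell cycle and histone genes 39 were lower (median -0.03), and of 23 cytosolic ribosomal protein genes 21 were lower (median -0.05). In WT shoots 49 and 7 of the same genes were lower, with medians of -0.21 and 0.05. Over all 13839 measured genes, 6028 were lower in mhz7 shoots, with a median of 0.02, and 7033 were lower in WT shoots. Both list medians in mhz7 shoots lie near the median of all genes.

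**Figure D5:**
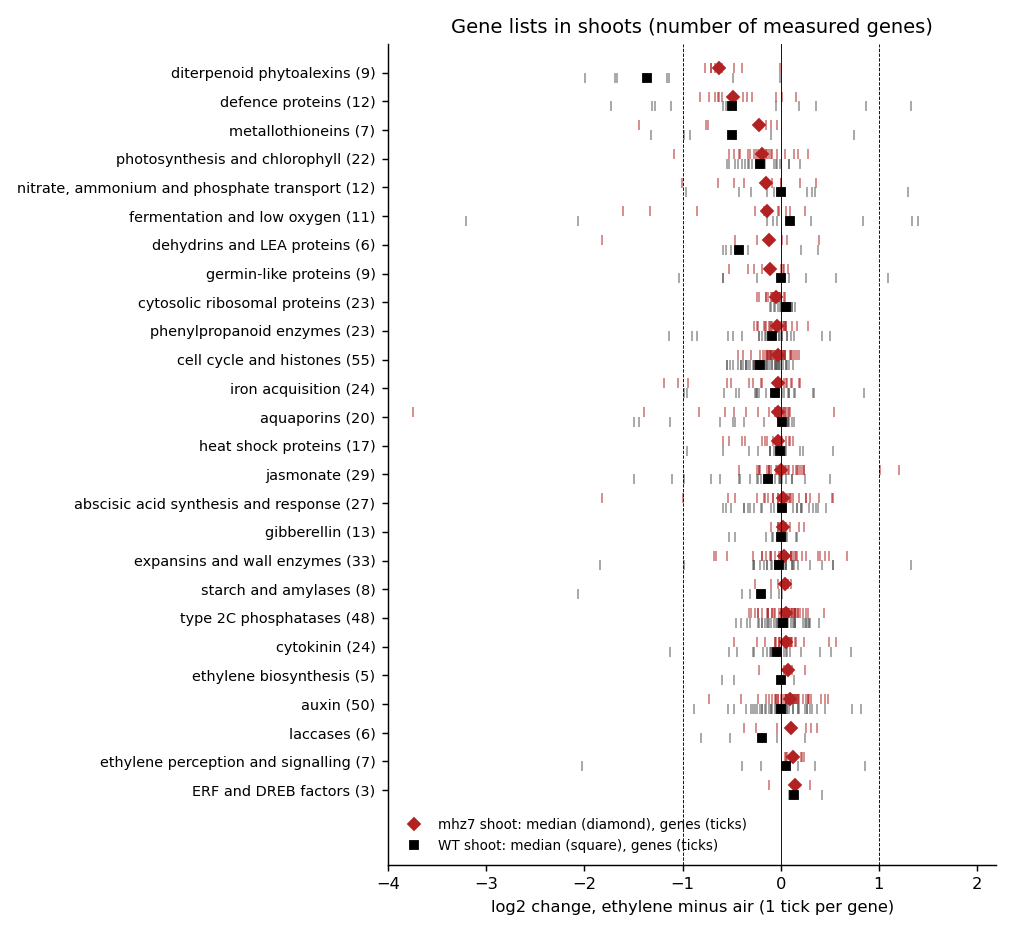
Log2 change in shoots, ethylene minus air, for 26 gene lists with at least 3 measured genes, 1 tick per gene. Red ticks and diamonds (medians) are mhz7 shoots, and dark ticks and squares are WT shoots. Dashed lines mark 2-fold. The lists are ordered by the mhz7 median, with diterpenoid phytoalexins at -0.63 on top.

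Root and shoot of mhz7 can be taken as 2 pairs, which gives a test of what they share. Nothing says that roots and shoots came from separate seedlings. The p-values of this test rest on how the ethylene change of a genotype differs between its 2 organs, pooled over mhz7 and WT. They measure no spread between replicate samples. A change in shoots alone enlarges the organ difference, so this test cannot decide whether shoots alone responded. A limma fit of all 8 arrays, with the pair as a block, found none of 21444 probe sets (0.0%) different between ethylene and air in mhz7 after Benjamini-Hochberg adjustment, and 840 at an unadjusted p under 0.05 (3.92%). The smallest adjusted p in limma was 0.954. Of the 130 probe sets changed in mhz7 shoots, 103 were tested, and 34 of them had an unadjusted p under 0.05 in that fit. The shoot pair that picked these probe sets also feeds the fit, so small p-values among them were partly built in. NSHB2 came nearest, with a mean change of -1.50 (SE 0.13) and a limma adjusted p of 0.954. It was lower in 2 of 2 mhz7 pairs, of which the shoot pair had picked it. PHT1-2 (-1.06), LOC4352168 (-1.13) and NAAT1 (-0.83) were also lower in both organs, and NAC5 (0.46) and JAZ13 (0.95) higher, none of them past the threshold.

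The same fit tested whether the ethylene response of mhz7 differed from that of WT, averaged over root and shoot. None of 21444 probe sets passed (0.0%), with 1070 at an unadjusted p under 0.05 and a smallest limma adjusted p of 0.23. That value was reached by NSHB2, where the mhz7 response minus the WT response was -3.05 (SE 0.184), and by LOC4349647, where it was 1.97 (SE 0.108). For LOC4349647 the mean change was -0.16 in mhz7 and -2.12 in WT. In WT itself 2 probe sets passed (0.00933%), both of LOC4349647 and both lower in ethylene, and this count was 0 under quantile normalization and 0 with a gas by tissue term.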

How the data were processed

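Transcript levels were measured in 8 samples, 1 per combination of genotype, organ and gas. The authors deposited a linear intensity per probe set and sample, made with MAS5 per the submitters' processing notes. The sources used give neither its version, scaling target and detection calls nor dates or batches. Deposited medians were 43.8 for mhz7 shoot in ethylene and 43.5 in air.

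From these, 123 control probe sets were set aside and each array was scaled to a mean of 500 without the highest and lowest 2% (factors 2.073 and 2.052 for the mhz7 shoot arrays). Values under 100 were set to 100. These held 52.0% and 52.4% of probe sets, so changes of dim transcripts are bounds or understated. Log2 differences are ethylene minus air. The probe annotation paired 22436 probe sets with 1 gene, 95 with several and left 34727 unnamed. Symbols come from the gene table of ASM3414082v1, used for names and gene neighbours. The brightest probe set stands for a gene in a list. Genes whose signal averaged 200 or more over 8 arrays count as measured.

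Genes named are the rises with 1 gene, the largest falls with and without root-abundant transcripts, the largest with a symbol, list members by size of change, large WT shoot changes, ethylene pathway genes and the limma genes with the smallest adjusted p. The genes of the chromosome 8 block, of the shared and opposite groups and some list members were named after their values were seen. The 29 lists are symbol patterns, 26 with at least 3 measured genes. Haemoglobins, secretory peroxidases and seed storage have 2 each: both haemoglobins fell, no other did. Lists, genes and tests were chosen with earlier results of these data known.

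limma 3.58.1 in R 4.3.3 used 21444 probe sets, the pair as block, 1 ethylene term per genotype and 2 residual degrees of freedom. On simulated data of that size it recovered, of 100 changes each, 67 of log2 size 1 and 94 of size 2 for mhz7, and 6 and 78 for the difference between genotypes, each with 6 false calls among the rest. Recovery on the measured arrays was not tested. There NSHB2, with a mean mhz7 change of -1.5 (SE 0.13), had a limma adjusted p of 0.954. A probe set that did not pass is therefore not shown to be unchanged. No sample pairing is given by the labels: pairs are arrays that share genotype and organ. Alternatives tried were the scaling, floor, minimum signal, fold, probe set choice and leaving out root-abundant transcripts. Other values were computed in Python 3.11.15 with pandas 2.3.3.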

Additional observations from a re-analysis of the deposited data

Results flagged for a closer look

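A group of 7 results stood apart because ethylene moved a probe set 2-fold one way in mhz7 shoots and 2-fold the other way in WT shoots. With 1 array per condition the difference was not tested within shoots. LOC4325834 changed by -2.27 in mhz7 and 1.69 in WT, LOC4334663 by -1.58 and 1.72, LOC4349327 by -1.07 and 2.50, and LOC4350725 by -1.04 and 1.74. NSHB2 changed by -1.33 in mhz7 and 1.40 in WT, and 1 of 3 probe sets of NSHB1 by -1.61 and 1.34. The root-abundant LOC4343992 changed by -1.08 in mhz7 and 1.21 in WT. A second probe set of LOC4349327 had -0.74 in mhz7 and 2.2 in WT.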

How the results depend on the processing

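The limma fit holds the pair of arrays that share genotype and organ as a block. A block by replicate number could not be fitted, since the labels give none. The median log2 shift of measured probe sets was -0.015 without scaling and 0.003 under quantile normalization. Under each of these settings 129 of the 130 calls were kept. The 16 rises became 9 with a floor of 200, 9 with a minimum signal of 400, 9 with 1 probe set per gene, 76 at 1.5-fold and 2 at 3-fold. The 114 falls became 54 with 1 probe set per gene, 392 at 1.5-fold, 27 at 3-fold, and 75 or 69 without probe sets at least 10-fold or 5-fold brighter in WT root. The share also changed in mhz7 root was 20.9% at 1.5-fold and 0.0% at 3-fold. The share of mhz7 changes also seen in WT shoot was 18.8% with a floor of 200, 17.2% at 3-fold and 18.7% without root-abundant probe sets. The share of WT changes seen in mhz7 was 5.71% with a floor of 200, 15.1% at 1.5-fold, 4.42% at 3-fold, 7.02% with 1 probe set per gene and 4.52% without root-abundant probe sets. Without the filter on mean signal, limma called 4 probe sets for the difference between genotypes. Over all settings its smallest adjusted p lay between 0.0956 and 0.982 for mhz7, between 0.0295 and 0.43 for the difference and between 0.0103 and 0.122 for WT. The 2 WT calls became 0 under quantile normalization, 0 with a gas by tissue term and 3 without the filter. The other probe set of OsPP2C45 gave 0.08. The cause of these shifts was not tested beyond the fewer probe sets or other threshold each setting brings. List medians moved by 0.1 or more for 3 settings: defence proteins without root-abundant genes (-0.38), and ERF and DREB factors (0.00) and laccases (-0.02) with a floor of 200.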
